A study of Homo sapiens with 24 samples.

Results

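TNF, IL1B, CXCL8, CXCL10, CCL2, CCL5, NFKBIA, TNFAIP3, NFKB1 and RELB are 10 genes of the NF-kB inflammatory response, picked by symbol from the 58735 genes of the deposited count table. Their messenger RNA was measured by polyA-selected RNA sequencing in MOLM-13 and THP-1, established human acute myeloid leukemia lines of monocytic type. Each line was cultured for 72 h with vehicle (PBS and DMSO), with L-ascorbic acid (LAA, vitamin C) at 250 µM, with olaparib, an inhibitor of poly-ADP-ribose polymerases, at 1 µM, or with LAA and olaparib together at those doses. The 8 groups had 3 libraries each, 24 in all. The labels do not say whether the 3 libraries of a group came from separate cultures. A p-value here therefore reflects the spread among libraries of the same group and no more, which may be technical. That spread is pooled over the groups of a fit, 12 libraries within a line and 24 for differences between the lines.

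NF-kB is a family of transcription factor dimers, built from subunits such as NFKB1 (the p50 precursor), RELA and RELB, that inhibitory IkB proteins hold in the cytoplasm. Receptors for TNF, IL-1 and microbial products activate the IkB kinase, IkB is degraded, and the freed dimers switch on cytokines and chemokines together with their own inhibitors. In monocytes the output includes TNF, IL1B and chemokines that attract neutrophils and T cells, and the inhibitors NFKBIA (IkB alpha) and TNFAIP3 (A20) close the loop.

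The promoters of the members were read beside the expression values to see which of them hold letters like those of NF-kB sites. RefSeq sequences of build GRCh38.p14 were matched for 7 of the 10 genes, as windows of 250 bases before to 50 after the start. CCL2, CCL5 and RELB had no entry. The search was for GGANNTTCC, the core of many NF-kB sites, for an interferon response motif (GAAA, any 2 bases, GAAA) and for TATAAA, each on both strands, and the 3 motifs did not overlap each other in these windows. Of 35116 promoters of the same length, 4.56% held GGANNTTCC, 3.57% the interferon motif and 11.5% TATAAA. The stretches shown are those of the genes that moved most, CXCL10 and TNF, and of the feedback inhibitor NFKBIA. Those of CXCL8 and NFKB1 are shown too, which passed no test between treatments and whose windows hold the same 9 letters. Each runs 5′ to 3′ on the gene's strand with motif letters in capitals. They lie at chr4:76023498-76023738 (CXCL10, minus strand), chr6:31575516-31575564 (TNF, plus), chr14:35404750-35404999 (NFKBIA, minus), chr4:73740458-73740505 (CXCL8, plus) and chr4:102501291-102501328 (NFKB1, plus).
CXCL10: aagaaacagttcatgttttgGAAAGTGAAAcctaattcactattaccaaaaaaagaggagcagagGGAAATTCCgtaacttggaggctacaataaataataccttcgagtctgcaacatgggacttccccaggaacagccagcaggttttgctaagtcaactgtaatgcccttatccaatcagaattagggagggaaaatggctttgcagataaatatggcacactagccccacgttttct
TNF: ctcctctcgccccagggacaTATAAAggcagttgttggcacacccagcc
NFKBIA: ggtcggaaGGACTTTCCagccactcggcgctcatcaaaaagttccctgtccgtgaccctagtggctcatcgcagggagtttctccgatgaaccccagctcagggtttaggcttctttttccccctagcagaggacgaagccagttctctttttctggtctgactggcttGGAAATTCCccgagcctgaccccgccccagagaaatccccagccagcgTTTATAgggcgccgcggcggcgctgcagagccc
CXCL8: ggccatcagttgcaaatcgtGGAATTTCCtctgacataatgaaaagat
NFKB1: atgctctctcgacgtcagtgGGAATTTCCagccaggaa

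Among the 7 members with an entry, CXCL10 was the one with an interferon motif match, GAAAGTGAAA at bases -221 to -212 from the start. It also held GGAAATTCC at -176 to -168. NFKBIA held GGACTTTCC at -242 to -234 and GGAAATTCC at -81 to -73. CXCL8 held GGAATTTCC at -91 to -83, and NFKB1 held the same letters at -48 to -40. In TNFAIP3 the match lay on the opposite strand at -67 to -59, where the gene's own strand reads GGAAAGTCC, outside what is shown. The TNF window had TATAAA at -29 to -24 and neither of the longer motifs, and the IL1B window had none of the 3. CXCL8 also had TATAAA, at -31 to -26, outside what is shown. NFKBIA had it on the opposite strand at -33 to -28, where the gene's own strand reads TTTATA. A match is a description of letters, and no binding was measured here. GGANNTTCC does not cover every NF-kB site, so letters left unmarked, or a window without a match, may still hold one.

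Total counts per library ranged from 18666259 to 25265870, and replicate pairs differed by more than sampling noise. Replicate 3 stood apart from the other pair in MOLM-13 LAA (chi-square per degree of freedom 17.0 and 25.0 against 5.44) and in MOLM-13 olaparib (19.996 and 25.1 against 4.23). Replicate 1 did so in MOLM-13 vehicle (14.1 and 13.1 against 5.24). Mitochondrial transcripts took 6.67 to 6.74% of counts with vehicle, 7.01 to 8.14% with LAA, 8.22 to 11.02% with olaparib and 8.73 to 9.31% with both in libraries labelled MOLM-13. In THP-1 they took 6.81 to 7.49, 6.94 to 7.70, 6.63 to 7.12 and 7.77 to 9.47%. The combination lay above vehicle without overlap in both lines, and the part of this in the results was not tested. All 10 myeloid and monocytic markers, CD33, SPI1, LYZ and MPO among them, were above 1 CPM (counts relative to the TMM-scaled size of the library) in every library. Of the markers of other cells, 4 of 5 T and NK genes and 4 of 6 epithelial and fibroblast genes stayed under 1 CPM in all libraries, and HBG1, HBB, PF4 and DCN had no count. The labels of the lines were harder to check. Between the vehicle libraries of both lines 765 of 17089 genes differed (adjusted p under 0.05, edgeR), 202 of them by 2-fold or more. A set of 15 protein-coding genes nearly silent in THP-1, MTAP, DLX5 and IGF2BP3 among them, summed to 31.8 ± 0.853 CPM (SD, n = 3) in MOLM-13 vehicle, 19.1 ± 1.33 with olaparib, 5.33 ± 0.469 with LAA and 4.09 ± 1.03 with both, against at most 0.361 CPM as a THP-1 group mean. These libraries are therefore called "labelled MOLM-13". Whether they hold cells of that line, of THP-1 or of both was not tested, and each value for them and each difference between the lines carries that limit. A treatment effect against vehicle and this shift cannot be told apart there. The shift of the 15 genes is small between the LAA and combination groups. The opposite set, of genes nearly absent from the MOLM-13 olaparib libraries, held only LHX3. In libraries labelled MOLM-13 LHX3 was at 0.083 CPM with LAA and 1.64 with both. In THP-1 it was at 0.127 with vehicle, 0.117 with LAA and 4.94 with both. LHX3 was thus higher with both than with LAA in each line, and its part in the results was not tested. In bulk RNA, fewer cells of a type and less RNA per cell cannot be told apart either.

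Per gene length, CCL5 was the most abundant member and CCL2 the least with vehicle in both lines. In FPKM (fragments scaled by gene length and library size, as the authors deposited them), the vehicle means of libraries labelled MOLM-13 ran from CCL5 at 27.2 through TNF at 18.1, NFKBIA at 13.3, NFKB1 at 7.49, RELB at 5.17, TNFAIP3 at 2.28, IL1B at 1.48, CXCL8 at 0.433 and CXCL10 at 0.399 to CCL2 at 0.231. Only CXCL8 and CXCL10 overlapped as neighbours in that order. With vehicle in THP-1, NFKBIA at 16.3 FPKM stood above TNF at 12.9, and IL1B at 1.63 overlapped TNFAIP3 at 1.59. With both compounds TNF fell from the second to the fifth place in libraries labelled MOLM-13, at 2.96 FPKM, and from the third to the fifth in THP-1, at 6.71. There it overlapped NFKB1 at 7.03 and RELB at 7.19 above it and not CXCL10 at 3.18 below it.

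**Figure D1:**
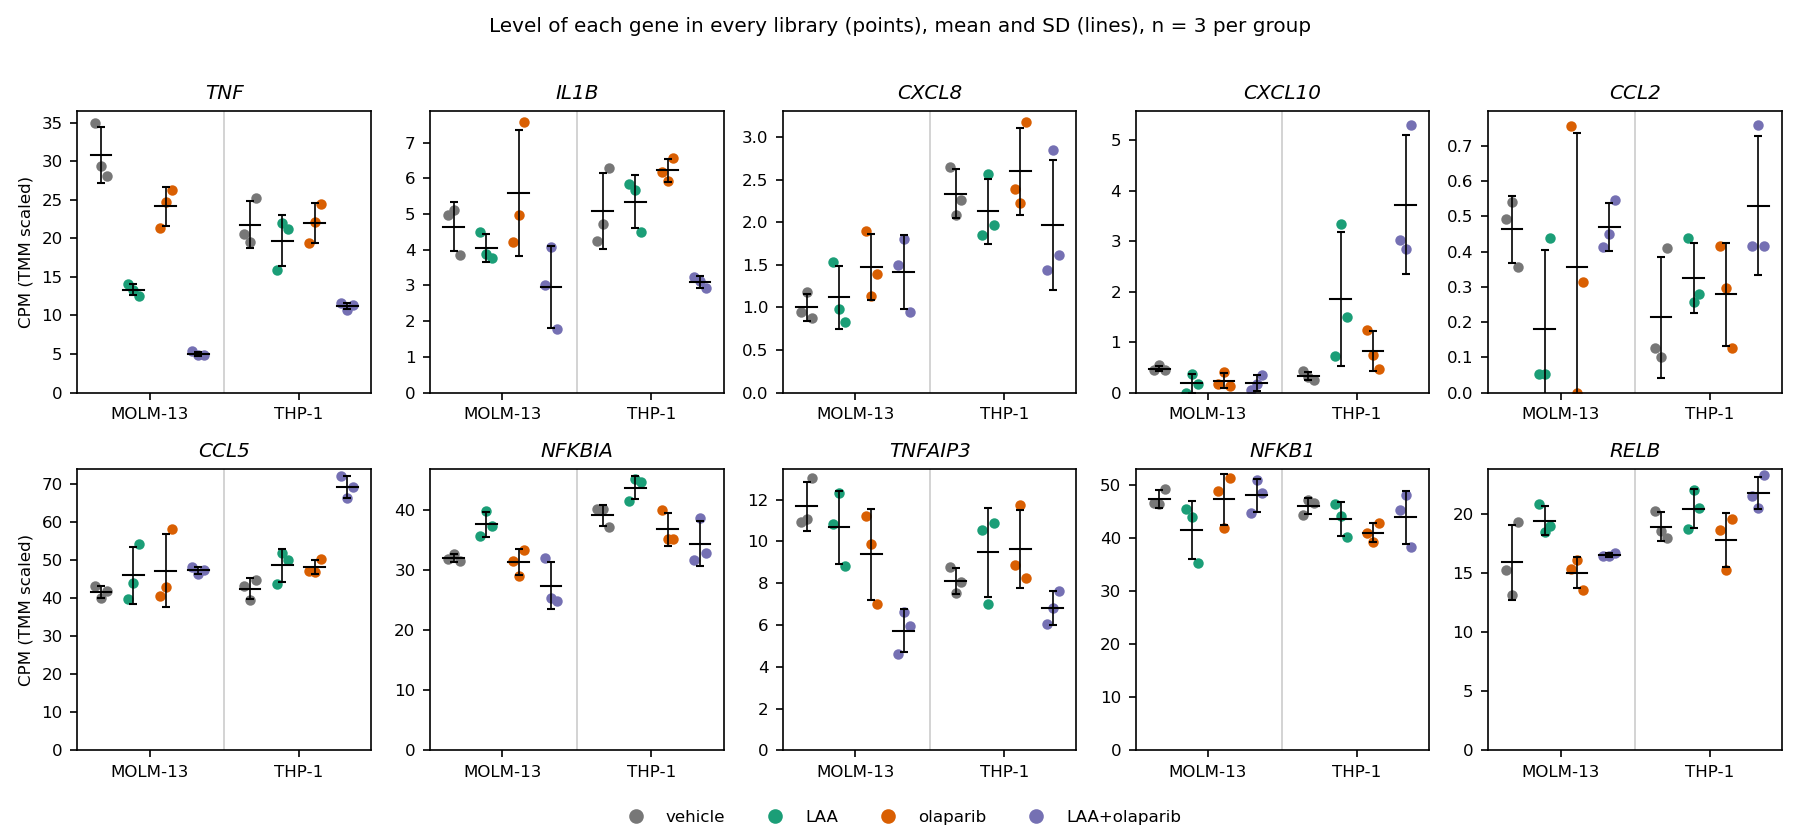
Level of each of the 10 genes (panels) in CPM with TMM scaling, for libraries labelled MOLM-13 at left and THP-1 at right in each panel, coloured by treatment. Points are libraries and lines are the mean and SD (n = 3). TNF with both compounds lies at 4.82 to 5.33 CPM in libraries labelled MOLM-13 and at 10.8 to 11.6 in THP-1, below every other library of its line.

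TNF, the cytokine that starts much of the inflammatory cascade, changed most often. In libraries labelled MOLM-13 it stood at 35.0, 29.3 and 28.1 CPM with vehicle, 14.0, 13.4 and 12.6 with LAA, 21.4, 24.8 and 26.3 with olaparib, and 5.33, 4.90 and 4.82 with both. The 4 groups did not overlap: vehicle was highest, then olaparib, LAA and the combination. How many of all genes have 4 separate groups was not counted. TNF fell with LAA by 1.20 ± 0.12 (log2 ± SE, 2.30-fold; adjusted p = 8.02e-06, edgeR), and was the one member called of 9 tested, where 1.88% of all genes were called. With both it fell by 2.61 ± 0.13 (6.12-fold; adjusted p = 1.63e-10). The olaparib libraries lay below vehicle without overlap, as those of 8.32% of genes did, and the difference of -0.33 ± 0.11 did not pass (adjusted p = 0.512). The MOLM-13 gene set given above fell in the same order of groups, and its part in the TNF result was not tested. Against LAA alone, where that set stood at 5.33 and 4.09 CPM, TNF fell by a further 1.41 ± 0.13 (adjusted p = 5.02e-07). Over 13 other settings, those without MOLM-13 LAA replicate 3 or MOLM-13 vehicle replicate 1 included, the LAA difference ranged from -1.26 to -1.10 and each stayed called.

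In THP-1, TNF was at 20.6, 19.5 and 25.2 CPM with vehicle, 15.9, 21.9 and 21.2 with LAA, 19.4, 22.1 and 24.5 with olaparib, and 11.6, 10.8 and 11.3 with both. Vehicle, LAA and olaparib libraries overlapped, and the combination lay below all of them. How many of all genes lie so was not counted, and 27.1% were called with both against vehicle. TNF fell with both compounds by 0.95 ± 0.13 (1.93-fold; adjusted p = 3.52e-06, edgeR), by 0.80 ± 0.13 against LAA alone (adjusted p = 5.84e-05) and by 0.96 ± 0.13 against olaparib alone (adjusted p = 3.76e-06). The single compounds gave -0.15 ± 0.13 and 0.02 ± 0.13 on the log2 scale, and neither passed. All 3 LAA libraries labelled MOLM-13 had less TNF than any THP-1 vehicle or LAA library. The levels of these groups were not tested against each other, and the share of all genes that lie so was not counted.

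**Figure D2:**
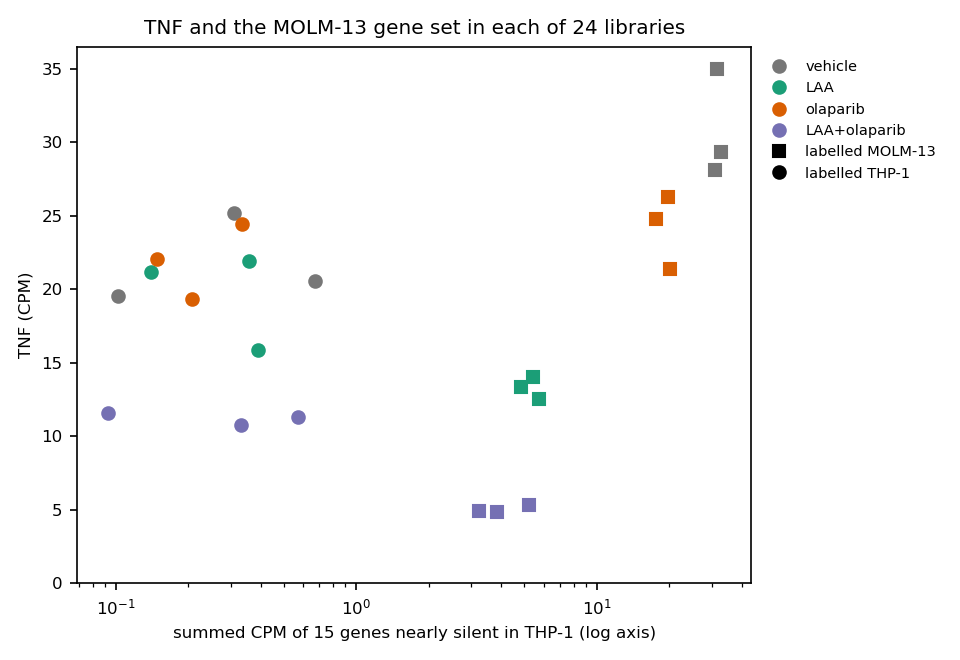
TNF (CPM, vertical) against the summed CPM of 15 genes nearly silent in THP-1 (horizontal, log axis) in each of the 24 libraries. Squares are labelled MOLM-13, circles THP-1, and colours are treatments. The LAA and combination libraries labelled MOLM-13 sit near each other on the horizontal axis, at group means of 5.33 and 4.09 CPM, and apart in TNF.

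IL1B, the inflammasome-processed pyrogen, was much lower than TNF and moved less. In THP-1 it was at 4.25, 4.73 and 6.28 CPM with vehicle, 5.85, 5.69 and 4.50 with LAA, 6.18, 5.92 and 6.57 with olaparib and 3.24, 3.13 and 2.92 with both. The combination libraries were the lowest and did not overlap any other group. How many of all genes lie so was not counted, and 27.1% were called with both against vehicle. The fall against vehicle was 0.70 ± 0.20 (1.63-fold; adjusted p = 0.00956, edgeR), which was lost without vehicle replicate 3 (adjusted p = 0.0941). IL1B also fell by 0.77 ± 0.20 against LAA (adjusted p = 0.00599) and by 1.00 ± 0.20 against olaparib (adjusted p = 0.000422). The libraries labelled MOLM-13 had 4.98, 5.11 and 3.86 CPM of IL1B with vehicle, 4.50, 3.88 and 3.77 with LAA, 4.21, 4.97 and 7.59 with olaparib, and 3.00, 4.08 and 1.79 with both. Vehicle and combination overlapped, and their difference of -0.63 ± 0.27 did not pass (adjusted p = 0.138). Only the combination against olaparib was called there, at -0.93 ± 0.27 (adjusted p = 0.0411), and that call was lost under 7 of 13 other settings, among them those without olaparib replicate 2 or 3, or without combination replicate 1 or 3.

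Among the chemokines, CXCL10, a T-cell attractant induced by interferons as well as NF-kB, rose in THP-1. It stood at 0.421, 0.305 and 0.257 CPM with vehicle, 0.732, 3.33 and 1.499 with LAA, 1.25, 0.740 and 0.460 with olaparib, and 3.01, 2.85 and 5.31 with both. Every treated library lay above every vehicle library, as for 10.1% of genes with LAA and 8.58% with olaparib. For both compounds that share is not given here, and 27.1% of all genes were called. The counts ran from 5 to 10 with vehicle to 60 to 102 with both. The rise with both was 3.47 ± 0.51 (11.1-fold; adjusted p = 8.29e-06, edgeR) and with LAA alone 2.45 ± 0.53 (5.47-fold; adjusted p = 0.0106), the one call of 9 members tested beside 1.49% of all genes. The LAA call was lost without vehicle replicate 2 (adjusted p = 0.0704), without vehicle replicate 3 (0.0664) and without LAA replicate 2 (0.131), the library at 3.33 CPM. With olaparib the value was 1.26 ± 0.57 (adjusted p = 0.498). In libraries labelled MOLM-13, CXCL10 had 0 to 11 counts, from 0 to 0.540 CPM, and was not tested in that line's own fit. Vehicle libraries, at 0.437 to 0.540 CPM, lay above every treated library there, at 0.410 or less. That rests on 10 or 11 counts against 8 or fewer. Olaparib lay below vehicle in 8.32% of genes, and for LAA and for both that share is not given here. In the fit of all 24 libraries CXCL10 gave -1.30 ± 0.72 with both (adjusted p = 0.248, edgeR). Reads of CXCL10 and of ART3, which overlaps it on the other strand, cannot be told apart because the library kit does not mark strand: over all libraries CXCL10 had 479 counts and ART3 280.

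CCL5 (RANTES), which attracts T cells and monocytes, rose in THP-1 with the combination. Its THP-1 libraries were at 43.2, 39.5 and 44.8 CPM with vehicle, 43.8, 51.8 and 50.02 with LAA, 47.1, 46.9 and 50.3 with olaparib, and 72.1, 66.3 and 69.2 with both. The combination group was above all other THP-1 libraries. How many of all genes lie so was not counted, and 27.1% were called with both against vehicle. The rise was 0.71 ± 0.08 against vehicle (1.64-fold; adjusted p = 1.24e-07, edgeR), 0.52 ± 0.08 against LAA (adjusted p = 2e-05) and 0.53 ± 0.08 against olaparib (adjusted p = 1.41e-05). The libraries labelled MOLM-13 were at 43.1, 39.9 and 41.9 CPM with vehicle, 39.6, 43.8 and 54.3 with LAA, 40.5, 42.9 and 58.2 with olaparib, and 48.2, 46.3 and 47.4 with both. Vehicle and combination did not overlap, as those of 17.2% of genes did not in that direction, and the difference of 0.19 ± 0.13 did not pass (adjusted p = 0.392).

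CXCL8, the neutrophil chemokine IL-8, was called in no treatment comparison. It ranged from 0.832 to 1.89 CPM over the 12 libraries labelled MOLM-13 and from 1.44 to 3.18 in THP-1, and every treated group overlapped vehicle. With both compounds it gave 0.51 ± 0.38 and -0.24 ± 0.30. CCL2 (MCP-1), the monocyte attractant, had 16 counts or fewer in every library. It gave 0.03 ± 0.78 with both in libraries labelled MOLM-13, was not tested in the THP-1 fit, and gave 1.33 ± 0.82 there in the fit of all libraries (adjusted p = 0.259, edgeR). The 95% interval of the first value, -1.49 to 1.55, shows how little this depth resolves.

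**Figure D3:**
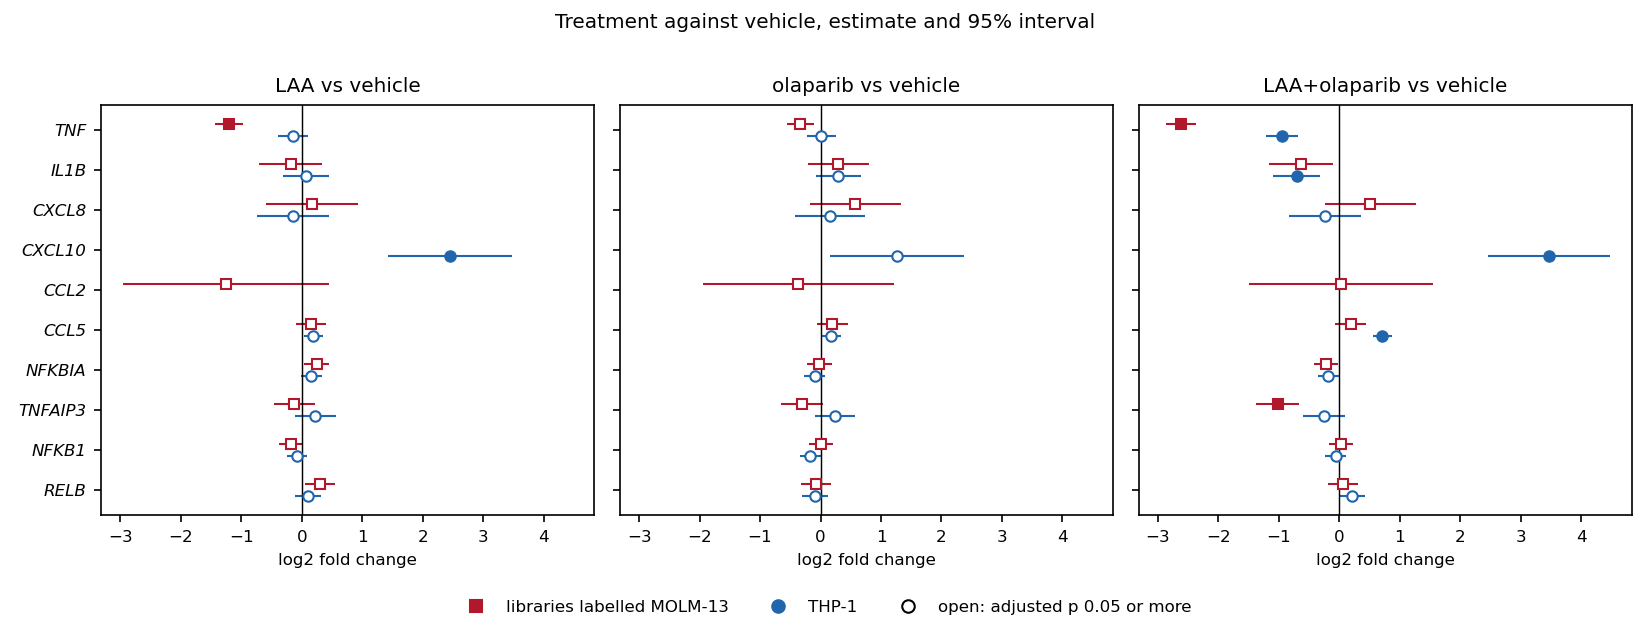
Log2 fold change against vehicle (horizontal) with its 95% interval for each gene (vertical), in 1 panel per treatment. Squares are libraries labelled MOLM-13, circles THP-1, and filled symbols passed an adjusted p of 0.05. TNF and TNFAIP3 fell with both compounds in libraries labelled MOLM-13, at -2.61 and -1.02, and CXCL10 and CCL5 rose in THP-1, at 3.47 and 0.71.

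Of the feedback inhibitors, TNFAIP3 (A20), a ubiquitin-editing enzyme that shuts off signalling to the IkB kinase, fell in libraries labelled MOLM-13. It was at 10.9, 11.1 and 13.04 CPM with vehicle, 10.9, 12.3 and 8.85 with LAA, 11.2, 9.89 and 7.01 with olaparib, and 4.60, 6.61 and 5.97 with both. The combination lay below the other 9 libraries, which overlapped. How many of all genes lie so was not counted. TNFAIP3 fell by 1.02 ± 0.18 against vehicle (2.03-fold; adjusted p = 0.000866, edgeR) and by 0.90 ± 0.18 against LAA (adjusted p = 0.00294). With TNF it made 2 calls of 9 members, where 12.2% of all genes were called. Against olaparib the fall was 0.71 ± 0.18 (adjusted p = 0.0228), lost under 7 of 13 other settings, among them those without olaparib replicate 1 or 2, or without combination replicate 1 or 3. In THP-1 it was at 8.76, 7.52 and 8.08 CPM with vehicle, 10.5, 7.02 and 10.9 with LAA, 8.88, 11.7 and 8.24 with olaparib, and 6.03, 6.83 and 7.65 with both. Vehicle and combination overlapped, and the difference was -0.25 ± 0.18 (adjusted p = 0.335). Reads of TNFAIP3, 4502 in all, and of the antisense gene AL357060.1, 334 in all, cannot be told apart either.

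NFKBIA, the IkB that rebinds NF-kB dimers and returns them to the cytoplasm, fell between LAA alone and the combination in both lines. Labelled MOLM-13, the libraries were at 31.8, 32.7 and 31.5 CPM with vehicle, 35.7, 39.9 and 37.4 with LAA, 31.5, 29.0 and 33.3 with olaparib, and 31.96, 25.4 and 24.9 with both. LAA lay above vehicle without overlap, as did 9.05% of all genes, and above the combination. In THP-1 it was at 40.2, 40.1 and 37.1 with vehicle, 41.5, 45.1 and 44.6 with LAA, 40.0, 35.3 and 35.1 with olaparib, and 31.7, 38.7 and 32.8 with both, and LAA lay above vehicle, as did 10.1% of genes, and above the combination. The combination fell against LAA by 0.47 ± 0.10 in libraries labelled MOLM-13 (1.38-fold; adjusted p = 0.00578, edgeR) and by 0.34 ± 0.09 in THP-1 (1.26-fold; adjusted p = 0.00691), the latter lost without combination replicate 1 (adjusted p = 0.0515). Between the combination and LAA, 14.9% and 20.3% of all genes were called. Against vehicle no treatment was called: LAA gave 0.24 ± 0.10 and 0.16 ± 0.09, and the combination -0.22 ± 0.10 and -0.18 ± 0.09. Without combination replicate 2 the THP-1 fall against vehicle was called (-0.26, adjusted p = 0.0458).

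The subunit genes passed in none of the comparisons as fitted with edgeR and TMM. NFKB1 lay between 35.4 and 51.3 CPM in the 24 libraries, and the combination differed from vehicle by 0.02 ± 0.10 (95% interval -0.18 to 0.22) and -0.06 ± 0.09 (-0.23 to 0.11). Its LAA libraries labelled MOLM-13, at 35.4 to 45.5 CPM, lay below vehicle, at 46.4 to 49.4 (-0.18 ± 0.10, adjusted p = 0.443, edgeR). In THP-1 its olaparib libraries, at 39.2 to 42.8 CPM, lay below vehicle, at 44.3 to 47.1. The share of all genes that lie so is not given here for either. RELB, of the non-canonical arm, lay between 13.1 and 23.3 CPM. Its combination differences were 0.06 ± 0.13 (-0.19 to 0.31) and 0.21 ± 0.11 (-0.01 to 0.42). Against olaparib alone the THP-1 combination gave 0.29 ± 0.11 for RELB (adjusted p = 0.0541, edgeR), which passed without olaparib replicate 3 (0.036) or combination replicate 2 (0.0456), with total-count scaling (0.0457) and with limma on FPKM at either pseudocount (0.0473 and 0.049).

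Counted by comparison, members were called in THP-1 in 4 of 9 tests with both compounds, TNF and IL1B lower and CXCL10 and CCL5 higher, where 27.1% of all genes were called. For olaparib alone edgeR called 0 of 9 in either line, beside 0.00619% of genes in libraries labelled MOLM-13 and 0.269% in THP-1. Under other settings the number of genes called ranged from 0 to 194 and from 6 to 124. At an unadjusted p under 0.05 there was 1 member (TNF) and 2 members (CXCL10 and CCL5), and DESeq2 and limma on FPKM also called 0. The combination against LAA called 3 members in libraries labelled MOLM-13 (14.9% of genes) and 4 in THP-1 (20.3%). Without THP-1 LAA replicate 2, CXCL10 (1.74, adjusted p = 0.0092) and TNFAIP3 (-0.64, adjusted p = 0.0101) were called in the latter too, as was TNFAIP3 without combination replicate 3 (-0.56, adjusted p = 0.0482). Against olaparib it called 3 (7.48%) and 5 (24.2%). The 5 in THP-1 were TNF, IL1B, CXCL10 at 2.21 ± 0.46 (adjusted p = 0.000632), CCL5 and TNFAIP3. TNFAIP3 there gave -0.48 ± 0.18 (adjusted p = 0.0438) and was lost under 10 of 13 other settings, among them each setting that left out olaparib replicate 1 or 2 or combination replicate 1 or 2. These comparisons share libraries. The median member difference with both was 0.02 in libraries labelled MOLM-13 and -0.18 in THP-1, beside 0.00 and -0.01 over all genes tested.

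Whether the combination differed from the sum of the single effects was tested by the interaction on the log2 scale. TNF fell below that sum in both lines. In libraries labelled MOLM-13 the single effects summed to -1.53 and the combination reached -2.61, an interaction of -1.08 ± 0.17 (adjusted p = 0.00128, edgeR), the one call of 9 members beside 2.04% of genes. In THP-1 the sum was -0.13 and the combination -0.95, an interaction of -0.82 ± 0.18 (adjusted p = 0.00486). IL1B in THP-1 had a sum of 0.37 and a combination of -0.70, an interaction of -1.07 ± 0.28 (adjusted p = 0.015), where 7.57% of genes were called, and the fit of all 24 libraries lost it (adjusted p = 0.0521). CXCL10 in THP-1 gave -0.24 ± 0.68 (95% interval -1.57 to 1.09; adjusted p = 0.892), CCL5 0.34 ± 0.11 (adjusted p = 0.0658) and TNFAIP3 -0.71 ± 0.25 (adjusted p = 0.0835). Without THP-1 LAA replicate 2, CCL5 (adjusted p = 0.0368) and TNFAIP3 (0.0163) passed as well, and CCL5 also passed with DESeq2 (0.0483).

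**Figure D4:**
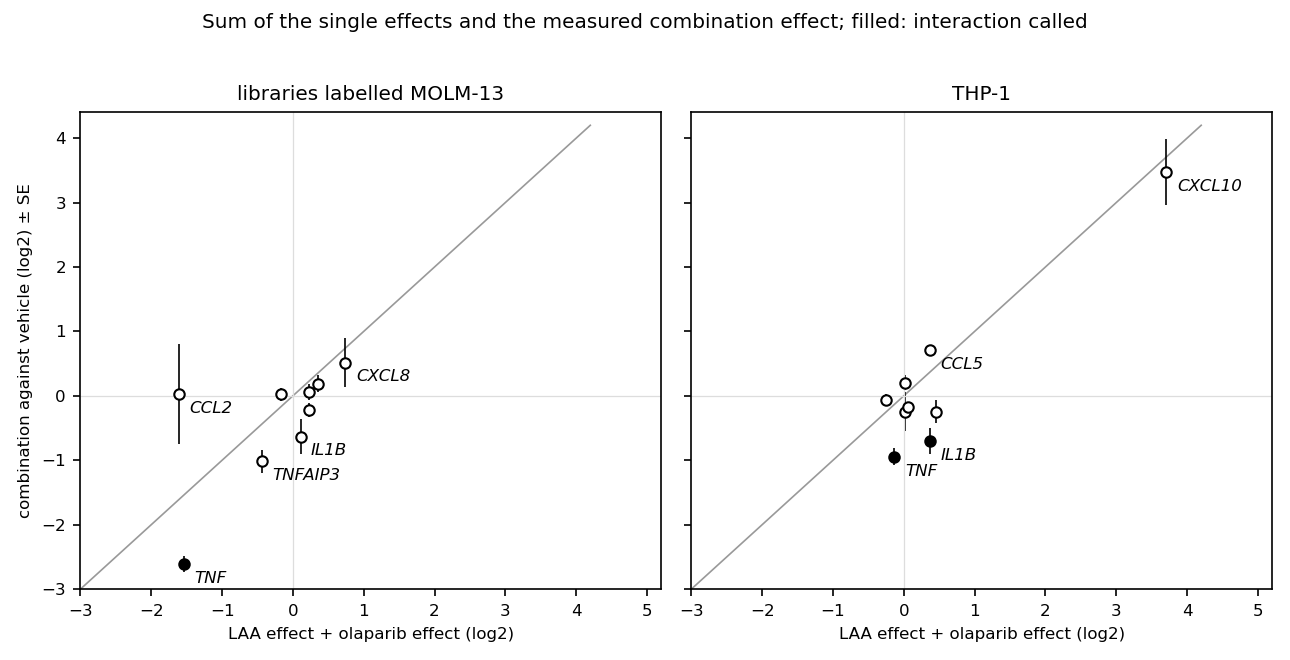
Measured combination effect against vehicle (log2, vertical, bars are SE) against the sum of the LAA and olaparib effects (log2, horizontal) for the 9 genes tested in each line. On the diagonal both are equal, and filled points have a called interaction. TNF lies below the diagonal in both panels, at -2.61 for a sum of -1.53 and at -0.95 for a sum of -0.13, and CXCL10 in THP-1 lies near it.

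Differences between the lines came from a joint fit of the 24 libraries and are given for THP-1 relative to MOLM-13. With vehicle, TNF was lower in THP-1 by 0.50 ± 0.12 (adjusted p = 0.013, edgeR) and CXCL8 higher by 1.23 ± 0.33 (adjusted p = 0.0255), beside 4.48% of genes called. The TNF call was lost without MOLM-13 vehicle replicate 1 (adjusted p = 0.129) or THP-1 vehicle replicate 1 (0.0848) or 2 (0.105). That of CXCL8 was lost without MOLM-13 vehicle replicate 1 (adjusted p = 0.0984) or 3 (0.108), or THP-1 vehicle replicate 1 (0.115) or 3 (0.0603). It was also lost with a replicate block (0.342). The effect of LAA on TNF differed by 1.06 ± 0.18 (adjusted p = 0.00262), the one member called, beside 0.14% of genes. The effect of both on TNF differed by 1.68 ± 0.19 (adjusted p = 9.35e-07) and that on CXCL10 by 4.79 ± 0.93 (adjusted p = 0.00305), beside 2.13% of genes. For TNF the THP-1 fall was the smaller one, and for CXCL10 THP-1 rose while the other line gave -1.30. The change of the MOLM-13 gene set with treatment moves with these differences, and its part was not tested. For the olaparib effect edgeR, DESeq2 and limma each called 0 members, beside 0.00585% of genes, and 2 (CXCL10 and TNFAIP3) had an unadjusted p under 0.05.

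The rest of the pathway was read from 7 gene lists. Among 8 other subunits and IkB proteins, edgeR called none with both compounds in libraries labelled MOLM-13, with 3 at an unadjusted p under 0.05. In THP-1 it called NFKBIB higher (0.81 ± 0.11) and NFKBIZ, an atypical IkB, lower (-0.55 ± 0.20). Of 22 IkB kinase subunits and adaptors, 4 rose and 1 fell in libraries labelled MOLM-13, and 6 rose and 1 fell in THP-1, beside 12.2% and 27.1% of all genes called. RBCK1, part of the linear ubiquitin ligase, rose by 0.60 ± 0.07 and 1.15 ± 0.07, and MYD88, the adaptor of Toll-like and IL-1 receptors, by 0.51 ± 0.09 and 0.93 ± 0.08. RNF31, the ligase's catalytic subunit, rose by 0.44 ± 0.10 in libraries labelled MOLM-13, and the kinase IRAK1 by 0.63 ± 0.06 in THP-1. The list medians were 0.06 and 0.10.

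Of 14 further feedback inhibitors tested, 1 fell in libraries labelled MOLM-13, and 1 rose and 2 fell in THP-1, where the shares of all genes called were 12.2% and 27.1%. ZFP36 (tristetraprolin), which binds and destabilises TNF messenger RNA, fell in both, by 0.54 ± 0.09 and 0.43 ± 0.09. It fell by 0.58 ± 0.09 with LAA alone in libraries labelled MOLM-13. In THP-1 IRAK3 fell by 0.23 ± 0.07 and TOLLIP rose by 0.19 ± 0.07. Receptors and processing genes gave 0 higher and 6 lower of 23 in libraries labelled MOLM-13, and 6 higher and 6 lower of 24 in THP-1, beside the same 12.2% and 27.1%. TNFRSF1B, the second TNF receptor, fell by 0.51 ± 0.08 in libraries labelled MOLM-13, and the chemokine receptor CCR1 by 0.53 ± 0.10. CCR2, the receptor of CCL2, fell by 0.39 ± 0.06 there and 0.46 ± 0.06 in THP-1. CD14, the lipopolysaccharide co-receptor and itself a monocyte marker, rose by 1.45 ± 0.18 in THP-1, and the pore protein GSDMD by 0.50 ± 0.07. The summed CPM of the 10 myeloid markers was lower with both compounds than with vehicle, 1572 to 1663 against 1998 to 2059 in libraries labelled MOLM-13 and 1923 to 2039 against 2147 to 2244 in THP-1, and its part in these results was not tested.

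Other NF-kB target cytokines, chemokines and effectors gave these counts: 0 rose and 3 fell of 19 in libraries labelled MOLM-13, with a median of -0.22, and 7 rose and 4 fell of 18 in THP-1, with a median of 0.20. The shares of all genes called were 12.2% and 27.1%. Tested as a difference between the lines in the effect of both, 2 of 20 were called, TNFSF13B (1.31 ± 0.21) and CSF1 (1.40 ± 0.36), both higher in THP-1 (adjusted p = 0.000331 and 0.0358, edgeR), with a list median of 0.59 beside 0.01 over all genes. PLAUR, LTB and the adhesion molecule ICAM1 fell in libraries labelled MOLM-13, by 0.60 ± 0.13, 0.85 ± 0.20 and 1.21 ± 0.31. The cytokines TNFSF13B (BAFF), CSF1 and IL23A rose in THP-1, by 0.92 ± 0.16, 1.40 ± 0.25 and 0.91 ± 0.17. Of 9 AP-1 and related early genes, 2 fell and none rose in libraries labelled MOLM-13, JUNB and IER2 (-0.39 ± 0.11 and -0.41 ± 0.13). In THP-1 2 rose and 1 fell, beside the same shares of all genes: ATF3 rose by 2.51 ± 0.20 and JUN by 0.34 ± 0.09, and EGR1 fell by 0.34 ± 0.08.

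Interferon-stimulated genes, listed for comparison with CXCL10, rose with both compounds in 8 of 10 tested in libraries labelled MOLM-13, with a median of 1.63, and in 11 of 11 in THP-1, with a median of 2.90. The shares of all genes called there were 12.2% and 27.1%. IFIT3 rose by 2.30 ± 0.16 and 2.90 ± 0.10, and ISG15 by 1.92 ± 0.14 and 2.95 ± 0.10. IFIT2 rose by 2.65 ± 0.15 in libraries labelled MOLM-13 and IFI44L by 4.02 ± 0.10 in THP-1. With LAA alone 9 of 11 rose in THP-1, beside 1.49% of all genes called. None of 10 was called by edgeR in libraries labelled MOLM-13, beside 1.88% of all genes, and 3 had an unadjusted p under 0.05. With olaparib alone 3 of 11 rose in THP-1, beside 0.269% of all genes called: IFIT1, IFIT2 and IFIT3, by 0.66 ± 0.13, 0.63 ± 0.11 and 0.47 ± 0.10. CXCL10, whose promoter carries the interferon motif match shown above, had its called rises in THP-1 groups that received LAA. It was at 0.0517, 0.163 and 0.348 CPM with both in libraries labelled MOLM-13, where IFIT2 and ISG15 rose. Any part of the motif in this pattern was not tested.

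**Figure D5:**
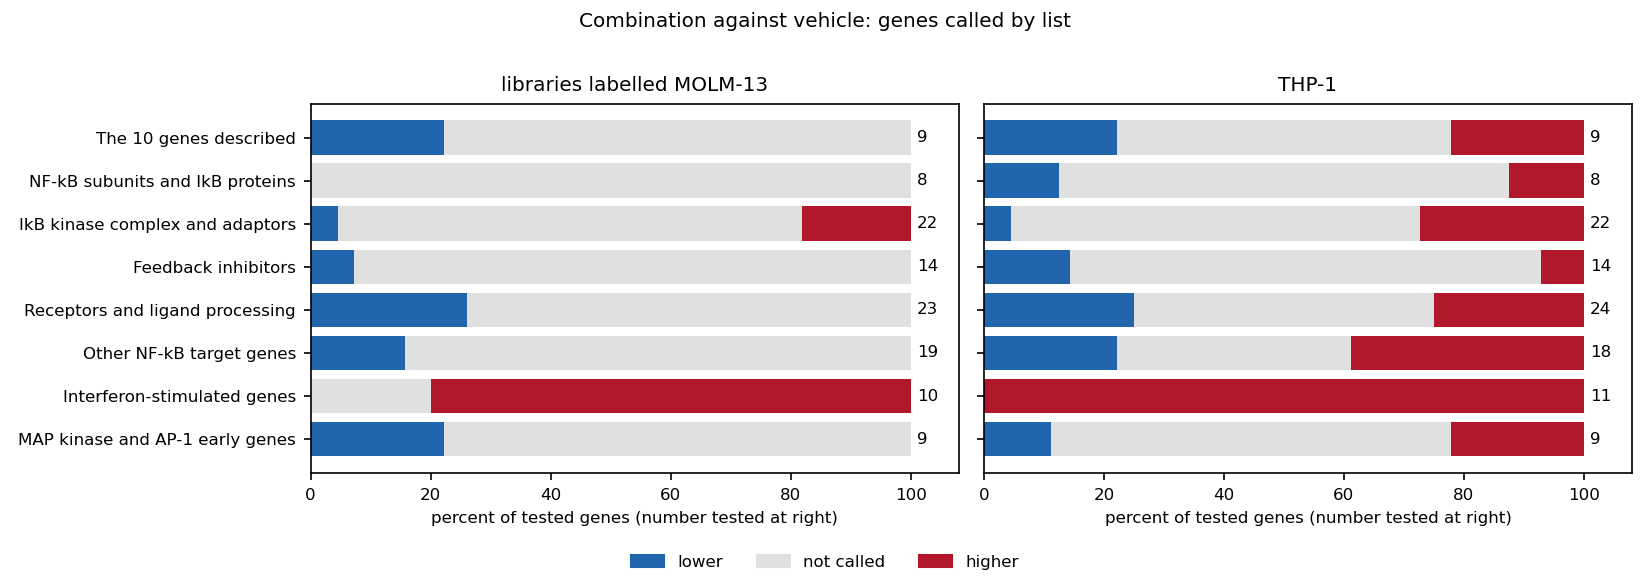
Share of tested genes called higher, lower or not called with both compounds against vehicle (horizontal, percent) for the 10 genes and 7 lists (vertical), with the number tested at the right. Libraries labelled MOLM-13 are at left and THP-1 at right. Interferon-stimulated genes were called higher in 8 of 10 and 11 of 11, and no other list had as large a share called in 1 direction.

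With LAA alone, 7 of 95 tested genes of the lists other than the interferon list (7.37%) were called in libraries labelled MOLM-13, where 1.88% of all genes were, and 2 of 95 (2.11%) in THP-1, where 1.49% were. In libraries labelled MOLM-13, FOS fell by 0.69 ± 0.10, TNFSF13B by 0.88 ± 0.13, TAB2 by 0.40 ± 0.09, CCR1 by 0.40 ± 0.10 and CCR2 by 0.26 ± 0.06. In THP-1, FOS and JUN each fell by 0.55. Apart from these, ZFP36 and the interferon group, the one listed gene called with LAA was IER3, lower in libraries labelled MOLM-13 and near 0 CPM.

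The genes whose pattern over the 8 group means was most like that of each member called in a treatment against vehicle were ranked by Pearson's r of log2 CPM centred within each line, among 11339 protein-coding genes. The points share libraries and the same treatments, and no p is given. For TNF they were SPP1 and ZNF277 (both 0.99) and ANXA2R (0.98). For TNFAIP3 they were AMIGO2, TM2D1 and RHBDF2, for IL1B STMP1, TLR1 and ARRB2, for CCL5 CHMP5, MSX1 and RNF25, and for CXCL10 MTHFSD, PPA1 and GTF2F2 (all 0.96).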

How the data were processed

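PolyA-selected RNA of 24 libraries was measured. The submitters' processing notes name HISAT2, SAMtools, DESeq2 and the build hg38. Tool versions, how reads were counted, with or without strand, and which annotation was used were not found there: not given in the sources used here. Per gene, the authors deposited whole-number read counts, without normalization, and FPKM, in which each count is scaled by the length of the gene and by a library size that was 0.952 to 1.045 times the column total.

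Counts were analysed with edgeR 4.0.16 in R 4.3.3: filterByExpr, TMM scaling and the quasi-likelihood F test in each line's 12 libraries, and in all 24 for line differences, with Benjamini-Hochberg adjustment over all genes tested and a threshold of 0.05. Of the 10 members, 9 passed the filter in libraries labelled MOLM-13 (not CXCL10), 9 in THP-1 (not CCL2) and all in the fit of 24. Intervals are estimates ± the 95% normal range of the SE. DESeq2 1.42.0, limma 3.58.1 on log2(FPKM + 1) and log2(FPKM + 0.1), total-count scaling, no filter, a replicate block and leaving out each library were alternatives. A simulation drew counts for each line's 12 libraries from the mean level of each gene, with the same fixed dispersion for every gene. Changes were placed in the LAA group, only in genes above 2 CPM. For MOLM-13, 44 of 50 genes changed 1.5-fold and 49 of 50 changed 2-fold were recovered among 15695 genes. For THP-1, 40 and 49 of 50 were recovered among 15868. The dispersion was not taken from the real replicates. CXCL10 and CCL2 had lower mean levels than that, so recovery was not measured at their levels.

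The members, lists and tests were chosen with earlier results of these data known. Genes named were all members, up to 3 called genes per list and treatment with the smallest adjusted p, and the 3 genes most like, in pattern, each member called against vehicle. The 15 genes of the line check summed to no more than 12 counts in THP-1 and to 20 or more in the MOLM-13 olaparib group, gene by gene. LHX3, the only gene of the opposite set, had 3 counts or fewer in the MOLM-13 olaparib group and 300 or more in THP-1.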

Additional observations from a re-analysis of the deposited data

Results flagged for a closer look

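Differences between the lines stood out for 3 effects, each by the test of the difference itself in the fit of all 24 libraries (edgeR). The effect of LAA on TNF was higher in THP-1 than in libraries labelled MOLM-13 by 1.06 ± 0.18 (log2 ± SE, adjusted p = 0.00262). The effect of both compounds on TNF was higher by 1.68 ± 0.19 (adjusted p = 9.35e-07). The effect of both on CXCL10 was higher by 4.79 ± 0.93 (adjusted p = 0.00305), and rests on 1 to 11 counts per library in the vehicle and combination libraries labelled MOLM-13. In the same libraries the 15 genes nearly silent in THP-1 fell from 31.8 to 5.33 CPM with LAA and to 4.09 with both, and the part of that shift in these differences was not tested.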

How the results depend on the processing

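Of 148 member results tested, 31 were called, and 22 kept their call under every alternative run. Of 2161 values under other settings 40 lost a call and 19 gained one, none turned a called direction, and 85 changed sign where neither value was called, none larger than 0.47 on the log2 scale. The count of members called for the combination against olaparib in libraries labelled MOLM-13 went from 3 to 1 with total-count scaling and with limma on log2 FPKM at either pseudocount, and ranged from 1 to 3 when single libraries were left out. For LAA against vehicle in THP-1 it went from 1 to 0 with limma at either pseudocount (CXCL10 adjusted p = 0.185 and 0.082) and ranged from 0 to 1. For the THP-1 interaction it went from 2 to 1 in the fit of all 24 libraries and ranged from 2 to 4. For the lines' difference in the LAA effect it went from 1 to 2 without the filter and with DESeq2, which added CXCL10 (3.84 and 3.89). For the vehicle difference it went from 2 to 1 with the replicate block and ranged from 0 to 2. Replicate numbers did not pair the samples: correlations of same-numbered deviations ran from -0.20 to 0.32, with 5 of 36 over 0.1. The block lost CXCL8 with vehicle (adjusted p = 0.342) and TNFAIP3 for the THP-1 combination against olaparib (0.0568), gained CCL5 for the lines' difference in the combination effect (0.0423), and changed no other member call. That CCL5 call was also gained without the filter (0.0111) and with DESeq2 (0.0349). Over all genes, the number called ranged from 113 to 564 for LAA in libraries labelled MOLM-13 and from 13 to 102 for the lines' difference in the LAA effect. The causes of these changes were not tested. FPKM pseudocounts shrink the folds of low genes, and CXCL10 and CCL2 are limited by depth.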
